A study of Mus musculus with 2 samples.

Results

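The cells described here came from the control library of a mouse embryonic stem cell differentiation and carried transcripts of the matrix proteoglycans decorin (Dcn) and lumican (Lum) but none of the mesothelial gene Upk3b. They were chosen by a rule on measured transcripts: at least 3 UMIs (unique molecular identifiers, each a counted RNA molecule) of Dcn plus Lum, Actc1 under 150 CPM (a gene's count per 1000000 UMIs), and no UMI of Upk3b or of the endothelial cadherin Cdh5. The rule found 252 of 6354 control cells, a share of 3.97% (exact 95% Clopper-Pearson interval 3.50 to 4.48%), out of 15803 cells in both libraries. Intervals on shares and levels cover counting error only.

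Both libraries came from D3 cells, an established mouse embryonic stem cell line, on day 6 of cardiomyocyte differentiation. The control library was of wild-type (WT) cells and the other was of Zbtb16 knockout cells, with 1 library each. The series addresses which subpopulation Zbtb16, a zinc finger transcription factor, regulates at the cardiovascular progenitor stage. The knockout allele, the number of clones and the separate cultures behind each library are not given in the sources used here. With 1 library per group no test was possible, no p-value is given, and knockout and library cannot be told apart.

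Decorin and lumican are small leucine-rich proteoglycans, secreted proteins that bind collagen fibrils and set their spacing in connective tissue. In the early embryo, cells that express such matrix genes arise from lateral plate mesoderm, the same sheet that gives rise to the heart fields, to the septum transversum and proepicardium beside the heart, and to extraembryonic mesenchyme of the allantois and yolk sac. Upk3b, a uroplakin, is a known marker of the mesothelial lining and of the proepicardium.

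The members held 11188397 UMIs in all, with a lowest, median and highest of 17799, 38812 and 204346 UMIs per cell, beside a median of 37324 over all control cells and 30513 over the 9449 knockout cells. When all cells of both libraries were clustered together into 17 groups, the libraries stood almost wholly apart: cluster 3 held 1730 control and 4 knockout cells, and cluster 9 held 650 control and 0 knockout cells. These 2 clusters held 129 and 101 of the members (51.2% and 40.1%). The other 22 members were spread over further clusters, 5 of them in cluster 10, which was led by Hoxc10, Sox2 and Cdx2. The libraries shared 16 cell barcodes, of which 1 was a member.

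The gates acted in order. Of 1149 control cells with at least 3 Dcn plus Lum UMIs, 25 were lost to the Actc1 limit, 38 to Cdh5 and 834 to Upk3b, so that 76.8% of the 1086 cells that reached the Upk3b gate held that transcript. Of the 834 cells, 142 held exactly 1 Upk3b UMI and 393 held at least 5. Just inside the Dcn plus Lum limit stood 41 members with 3 UMIs and 20 with 4, and just outside it 56 cells with 2 UMIs and 186 with 1. The members' Dcn plus Lum count had a lowest of 3, a median of 8 and a highest of 84 UMIs. Both transcripts were seen in 198 members, Dcn alone in 25 and Lum alone in 29. The Actc1 limit was far from the members, whose highest value was 91.3 CPM and of whom 208 had no Actc1 UMI.

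A background for the Dcn plus Lum limit was taken from endothelial cells and from joint cluster 13, which was led by the endoderm genes Ttr and Spink1. Among 274 control cells with at least 3 Cdh5 UMIs, a type that should lack both proteoglycans, 6 held at least 3 Dcn plus Lum UMIs (2.19%, exact interval 0.808 to 4.71%), at a median depth of 54210 UMIs. Of the 122 control cells of joint cluster 13, 6 reached that limit (4.92%, 1.83 to 10.4%). After every cell was thinned to 15000 UMIs, the share was 0.365% in these Cdh5 cells and 0.820% in cluster 13. At that depth the rule again found 252 control cells, of which 148 were the same cells as at full depth. Thinning took the control cells at the Dcn plus Lum limit from 1149 to 574, and those that then held Upk3b from 834 to 312. The membership of single cells therefore depended on depth, and the equal number was the net of members lost and cells gained.

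The labelled identity was checked on the marker genes Dcn, Lum, Tdo2, Hoxb1 and Hoxb6. Dcn and Lum were at 83.2 CPM (exact Poisson 95% interval 78.0 to 88.7) and 191 CPM (183 to 199) in the members' summed UMIs, against 16.9 and 27.6 CPM in the 6102 other control cells, a difference that the rule set. Tdo2, which encodes the tryptophan-degrading enzyme tryptophan 2,3-dioxygenase, was at 124 CPM (118 to 131) in the members and 45.2 CPM in the other control cells. The posterior patterning gene Hoxb6 was at 123 CPM (117 to 130) against 45.9 CPM.

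Hoxb1 went against the label. This anterior Hox gene, a marker of posterior second heart field progenitors, was at 104 CPM (97.7 to 110) in the members and at 159 CPM (157 to 160) in the other control cells, so it was lower in the cells it was named to mark. After thinning to 15000 UMIs, Hoxb1 was seen in 49.6% of the members (43.3 to 55.9%), in 67.3% of the other control cells and in 12% of the Cdh5 cells. The share in the members was above that in the Cdh5 cells. Those cells were not shown to lack Hoxb1, so their share sets no background for it. The control library's free RNA, taken from barcodes with few UMIs, held 186 CPM of Hoxb1, which is above the members. The part of free RNA in the members' Hoxb1 was not tested. Hoxb1 was thus not a gene that marked the members within the library. The cells are called Dcn Lum cells without Upk3b below.

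**Figure D1:**
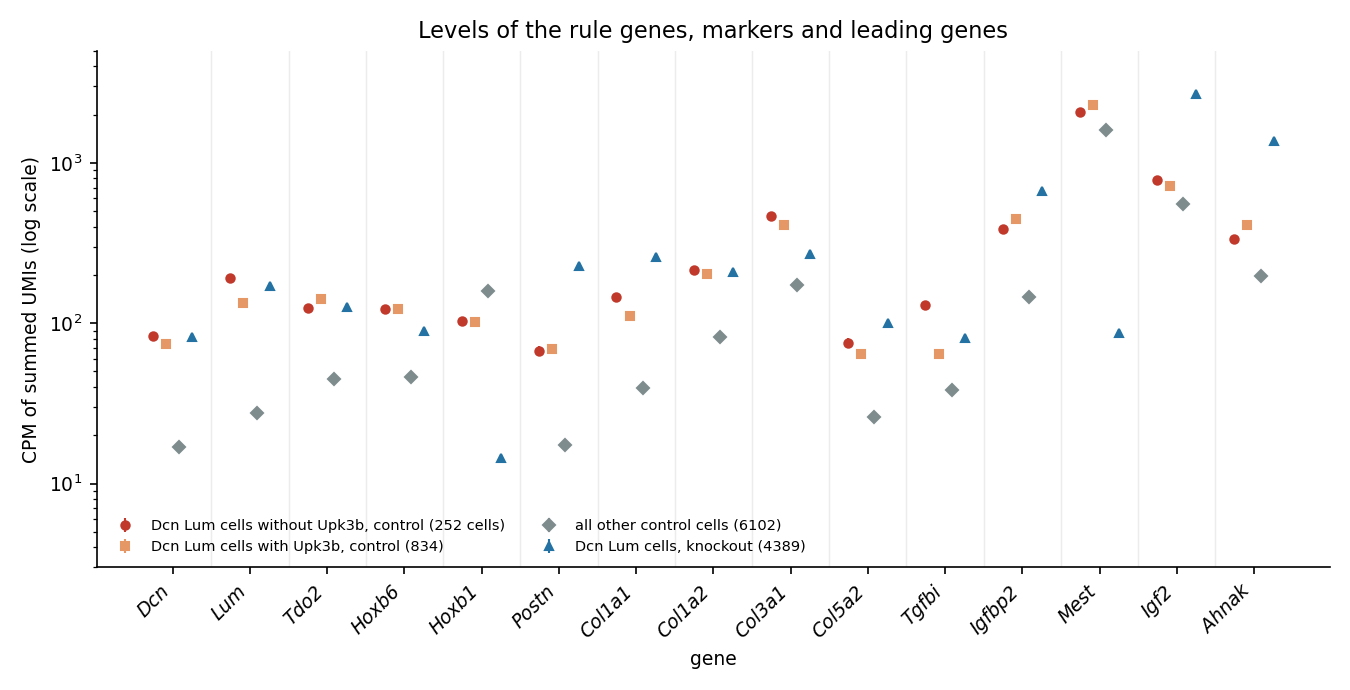
Levels of the marker genes and of leading matrix and growth genes (CPM of summed UMIs, log axis) in the members, the control Dcn Lum cells with Upk3b, the other control cells and the knockout Dcn Lum cells, with exact Poisson 95% intervals of counting error as bars. Hoxb1 is lower in the members (104 CPM) than in the other control cells (159 CPM), and Postn is highest in the knockout cells (228 CPM).

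Of 3387 genes at 50 CPM or more in either group, 75 (2.21%) were at least 1.5-fold higher in the members than in the other control cells and 87 (2.57%) at least 1.5-fold lower. The count of higher genes was 143 after every cell was thinned to 15000 UMIs and 113 when each cell had equal weight. The higher genes were led, after Lum and Dcn, by Postn, which encodes the matricellular protein periostin (66.8 against 17.3 CPM, fold interval 3.57 to 4.17), and by the type I collagen chain gene Col1a1 (146 against 39.5 CPM, 3.50 to 3.88). Tgfbi, which encodes a TGF-beta-induced matrix protein, was at 129 against 38.4 CPM (3.19 to 3.56). Further down were the collagen gene Col3a1 at 465 against 172 CPM and the insulin-like growth factor binding protein gene Igfbp2 at 389 against 146 CPM. The gates on Actc1, Upk3b and Cdh5 bear on this comparison too, since the other control cells were not held to them.

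A second reference met every gate but the one on Dcn and Lum: 2341 control cells with Actc1 under 150 CPM, no Upk3b or Cdh5 UMI and no Dcn or Lum UMI, at a median of 31620 UMIs. Joint clusters 6, 7, 8 and 11 held 33.1%, 16.8%, 13.5% and 17.8% of these cells. Leading genes of these clusters included the cardiac genes Sfrp5, Myl7, Ttn and Isl1, so this reference was for the most part cardiac. Clusters 3 and 9, where most members lay, held 8.80% and 4.23% of it. Against these gated cells 165 of 3436 genes (4.8%) were at least 1.5-fold higher in the members and 149 (4.34%) lower. Postn stood at 66.8 against 2.16 CPM, a fold interval of 26.3 to 36.5. Igfbp2 was at 389 against 31.5 CPM, Tdo2 at 124 against 10 CPM, Hoxb6 at 123 against 12.8 CPM and Col1a1 at 146 against 16.9 CPM. The levels of Postn, Tdo2, Hoxb6 and Col1a1 in this reference lay under those in the library's free RNA, taken from barcodes with 10 to 100 UMIs, which were 18.2, 39.5, 53.3 and 53.3 CPM.

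Beside the collagens, the matrix lists differed in parts. Over 10159 genes at 5 CPM or more in either group, 230 (2.26%) were at least 1.5-fold higher in the members than in the other control cells and 515 (5.07%) lower, with a median log2 ratio of -0.05. Of 21 genes for fibrillar collagens and the enzymes that process them, 18 were measured at that level, 8 were higher, 1 was lower and the median log2 ratio was 0.29. The higher ones were the chains Col1a1, Col1a2 (214 against 82.0 CPM), Col3a1, Col5a1 (73.0 against 37.8 CPM) and Col5a2 (75.1 against 26.1 CPM), the procollagen protease Adamts2 (82.1 against 34.9 CPM), the crosslinking enzyme Loxl1 (81.6 against 50.4 CPM) and the prolyl hydroxylase subunit P4ha2 (34.7 against 21.6 CPM). Col2a1, the cartilage collagen, was lower at 1.97 against 10.7 CPM. Serpinh1, the collagen chaperone, was at 1096 against 920.4 CPM.

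Basement membrane genes showed no such shift. Of 15 such genes 14 were measured, 2 were higher and none was lower, with a median log2 ratio of 0.04. The 2 were Nid1, which encodes the linker protein nidogen 1 (57.6 against 26.3 CPM), and the laminin chain gene Lama4 (15.6 against 9.29 CPM). Of 17 measured genes of an elastic fibre and matricellular list that does not hold Postn or Tgfbi none was higher and 2 were lower, with a median of 0.03, and the fibrillin gene Fbn2 was at 71.8 against 137 CPM. Among the 11 small leucine-rich proteoglycans 3 were measured, and beside Dcn and Lum only Bgn (biglycan) was higher, at 7.33 against 3.77 CPM.

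Lum and Dcn are next to each other on chromosome 10 in the RefSeq table of the assembly GRCm38.p6, followed by the proteoglycan genes Kera and Epyc. Kera had 0 UMIs in the members and Epyc had 2. Btg1, on the other side of Dcn, was at 94.7 CPM in the members and 111 CPM in the other control cells, and Atp2b1, beyond Epyc, at 268 and 273 CPM. Within this stretch the higher level in the members was thus seen for Dcn and Lum, the genes of the rule. Over the 17 joint clusters the genes with the pattern most like that of Dcn, by Pearson correlation of log2(CPM + 1), were Lum (0.979), Tdo2 (0.967), Prss35 (0.947), Col1a1 (0.935) and Ccn4 (0.933). For Lum they were Dcn, Tdo2 (0.964), Igfbp2 (0.948), Steap2 (0.944) and Slc2a1 (0.933). These clusters share 2 libraries and were built from the same genes, so the correlations are descriptions only.

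The mesenchymal list was higher in part. Of 16 mesenchymal and fibroblast genes 11 were measured, 6 were higher and 2 lower, with a median log2 ratio of 0.62, and the list's summed level was 2840 against 1809 CPM. The PDGF receptor gene Pdgfrb was at 28.5 against 12.6 CPM and the intermediate filament gene Vim at 1631 against 1059 CPM, whereas Pdgfra, the other PDGF receptor gene, was at 103 against 92.7 CPM. The 2 lower genes were transcription factors of mesenchyme, Twist1 (150 against 284 CPM) and Prrx1 (9.74 against 23.4 CPM). Against the gated cells without Dcn or Lum both were again lower, Twist1 with 391 CPM in that reference and Prrx1 with 43.3 CPM. The fibroblast genes Thy1, Fap and Dpt did not reach 5 CPM in either group.

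The Hox genes that were higher in the members were posterior ones, and all of them were of the Hoxb cluster. Of 15 genes of the anterior paralogue groups 1 to 5, 7 were measured, none was higher and 2 were lower, with a median log2 ratio of -0.12. Of 18 genes of groups 6 to 13, 4 were measured and all 4 were higher, with a median of 0.81. The 4 were Hoxb6, Hoxb7 (23.2 against 14.5 CPM), Hoxb8 (57.2 against 30.1 CPM) and Hoxb9 (13.4 against 7.71 CPM). Within the Hoxb cluster, Hoxb2 was at 229 against 225 CPM, Hoxb3 at 27.5 against 27 CPM and Hoxb4 at 73.6 against 79.8 CPM, while Hoxb5 was at 74.5 against 61.5 CPM.

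The comparison with the gated cells gave the same order along the cluster with wider gaps at the posterior end. Over the 10251 genes at 5 CPM or more in that comparison, 482 (4.7%) were higher and 757 (7.38%) lower, with a median of -0.07. All 4 measured genes of groups 6 to 13 were higher, with a median of 1.61, and of the 8 measured genes of groups 1 to 5, 1 was higher and 3 were lower, with a median of -0.23. In the gated cells Hoxb5 was at 47.3 CPM, Hoxb6 at 12.8 CPM, Hoxb8 at 16.1 CPM and Hoxb9 at 4.26 CPM.

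**Figure D2:**
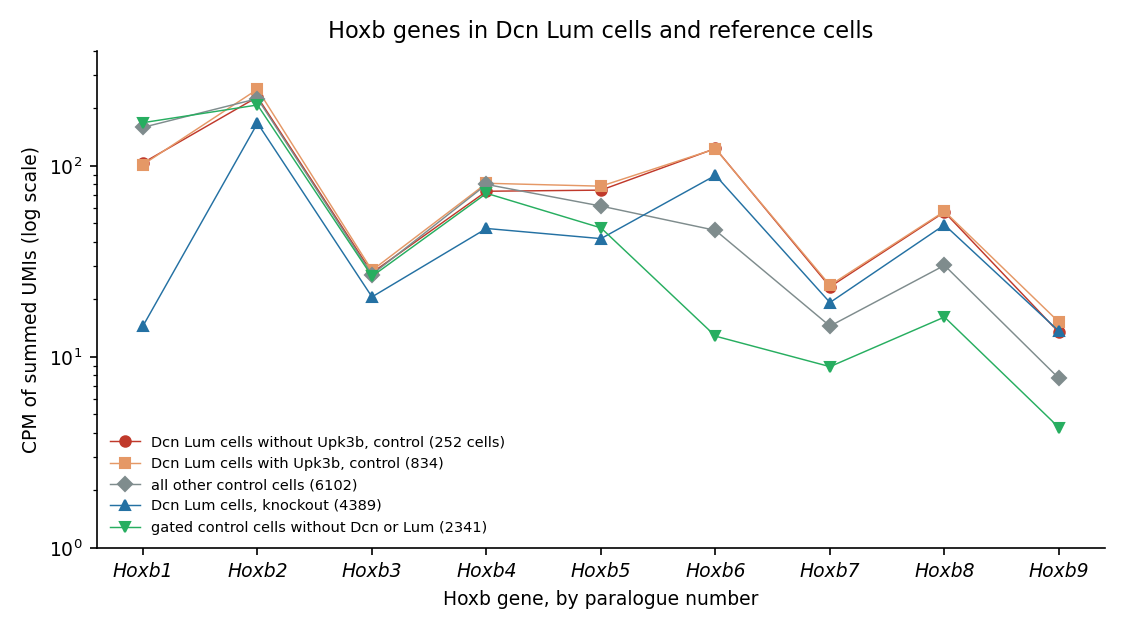
Level of each Hoxb gene from Hoxb1 to Hoxb9 (CPM of summed UMIs, log axis), with 1 line for each of the members, the control Dcn Lum cells with Upk3b, the other control cells, the knockout Dcn Lum cells and the gated control cells without Dcn or Lum. The control lines lie close together from Hoxb2 to Hoxb4 and part at Hoxb6, where the members are at 123 CPM and the gated cells at 12.8 CPM.

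Genes of the heart fields were lower. Of 16 second heart field genes 10 were measured, none was higher and 8 were lower, with a median log2 ratio of -1.0. Isl1, the LIM homeobox gene of these progenitors, was at 12.2 against 41.4 CPM, the muscle transcription factor gene Mef2c at 72.2 against 301 CPM, and the ligand gene Wnt2 at 72.5 against 118 CPM. Sfrp5, which encodes a secreted Wnt inhibitor of cardiac progenitors, was at 8.31 against 98.1 CPM. Isl1 was seen in 9.13% of the members at the thinned depth, in 34.9% of the other control cells and in 36.1% of the Cdh5 cells. The Cdh5 cells were chosen as background for Dcn and Lum and were not shown to lack Isl1, so their share sets no background for it.

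Of 16 cardiomyocyte genes 14 were measured and 12 were lower, with a median log2 ratio of -2.61. The list summed to 604 CPM in the members, 2715 CPM in the other control cells and 2566 CPM in free RNA, and the atrial peptide gene Nppa had no UMI in the members. The titin gene Ttn was at 22.6 against 299.8 CPM, the cardiac troponin T gene Tnnt2 at 45.1 against 355 CPM and the atrial myosin light chain gene Myl7 at 91.9 against 846 CPM. Myl7 was seen in 35.7% of the members and 54.4% of the Cdh5 cells at the thinned depth. The Cdh5 cells were not shown to lack Myl7 either, and the part of free RNA in its level was not tested. Since Actc1 was a gate, the direction of this list against the other control cells was in part fixed by the rule. Against the gated cells, 11 of 13 measured cardiomyocyte genes and 10 of 12 measured second heart field genes were lower, with medians of -1.95 and -1.47. Most of those gated cells lay in the joint clusters with leading cardiac genes, so they are no neutral reference for these lists.

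The broader lateral plate list went both ways. Of 20 genes 15 were measured, 3 were higher and 7 lower, with a median of -0.58. The higher genes included Hand1, a basic helix-loop-helix factor gene of lateral and extraembryonic mesoderm (1257 against 622 CPM), and the splanchnic forkhead gene Foxf1 (184 against 99.9 CPM). Lower were Hand2 (109 against 252 CPM), the GATA factor genes Gata4 (68.8 against 139.8 CPM) and Gata5 (80.4 against 161 CPM), Isl1, Prrx2, the limb and heart gene Tbx5 (15.6 against 31.6 CPM) and Meis1 (73.2 against 118 CPM).

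Of 12 genes of extraembryonic mesoderm and allantois 9 were measured, 8 were higher and none lower, with a median log2 ratio of 0.99. Against the gated cells all 9 were higher with a median of 1.61. Against the control Dcn Lum cells with Upk3b 2 of 9 were higher and none lower, with a median of 0.12. The shift was thus not particular to the members, and the list was chosen with earlier results of these data known. Genes higher than in the other control cells included the hindlimb and allantois homeobox gene Pitx1 (12.2 against 2.12 CPM), the placental gene Plac1 (164 against 82.0 CPM), Spin2c (125 against 64.5 CPM) and the zinc finger gene Bnc2 (24.3 against 13.6 CPM). Pitx1 was measured only through its level in the members. Hand1 and Postn belong to this list as well as to those above. The 5 members in the cluster led by Hoxc10, Sox2 and Cdx2 bear on it, and without all 22 members outside joint clusters 3 and 9, a setting chosen after seeing the data, the list's median was 1.04.

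Signalling genes were for the most part at like levels. None of the 11 measured PDGF, VEGF and FGF genes was called in either direction, and of the 19 measured BMP genes 2 were higher and 2 lower, with a median of 0.08. Among the latter the homeobox target Msx1 was at 328 against 194 CPM, whereas the ligand gene Bmp7 (13 against 25.6 CPM) and Bmper, which encodes a BMP-binding protein (2.06 against 9.04 CPM), were lower. Of 7 measured hedgehog genes 2 were higher, the receptor and target gene Ptch1 (90.4 against 49.1 CPM) and the co-receptor gene Cdon (18.9 against 11.1 CPM). Of 15 measured Wnt genes 3 were higher and 4 lower. Wnt4 was at 25.2 against 6.94 CPM and Wnt11 at 14.5 against 8.22 CPM, while Wnt2, Sfrp1 (80.4 against 130 CPM), Sfrp2 and Sfrp5 were lower. The guidance ligand gene Slit2 was at 86.6 against 39.9 CPM and the scavenging chemokine receptor gene Ackr3 at 70.9 against 42.1 CPM.

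The endoderm list summed to 179 CPM against 555 CPM in the other control cells, all 8 measured genes were lower, and Apoa1, Foxa1, Foxa2 and Hnf4a had no UMI. The transthyretin gene Ttr was at 1.43 against 105 CPM and the trypsin inhibitor gene Spink1 at 2.86 against 109 CPM. The endothelial list summed to 128 against 288 CPM with 9 of 12 measured genes lower, a direction that the Cdh5 gate bears on. Per cell its median was 101 CPM in the members and 96.7 CPM in the other control cells. Against the gated cells, which met the same Cdh5 gate, it summed to 128 against 113 CPM, with 4 of 7 measured genes higher and 2 lower. The pluripotency list summed to 23.8 against 72.7 CPM. The part of any such cells in the results above was not tested.

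The members varied widely among themselves. Hoxb6 had quartiles of 36.9, 104 and 191 CPM per cell and a highest value of 593 CPM. Postn had quartiles of 0, 18.5 and 61.7 CPM and a highest of 1758 CPM, and the 5% of members with the most held 45.9% of its UMIs. Its level in the summed UMIs was thus carried by a minority of cells. Tdo2 had quartiles of 0, 37.4 and 166 CPM, and Hoxb1 of 0, 32.6 and 123 CPM.

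Clustered alone, the members fell into 2 groups that followed the cell cycle. The first held 140 cells, 126 of them from joint cluster 3, and the second held 112 cells, 101 of them from joint cluster 9. All 18 G2 and M phase genes were at least 1.5-fold higher in the first, with a median log2 ratio of 3.43 and summed levels of 3849.6 against 508 CPM. Of the 18 S phase genes 8 were higher, with a median of 0.56. The topoisomerase gene Top2a was at 552 against 35.1 CPM, and Kif11, Aurkb and Ube2c, which act in mitosis, were among the 10 leading genes. Median depth was 45372 UMIs in the first group and 32465 in the second.

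In the group with few G2 and M transcripts Col3a1 was at 631 against 377 CPM and Postn at 100.1 against 49.3 CPM. Few genes of the collagen, basement membrane and elastic fibre lists differed by 1.5-fold. Higher there were 1 of 18 measured fibrillar collagen genes (Col3a1), 0 of 14 basement membrane genes and 1 of 16 elastic fibre and matricellular genes (Mfap2), and none was lower. Of the 3 measured small leucine-rich proteoglycan genes, Dcn, Lum and Bgn, 2 were higher there, with list sums of 375 against 234 CPM. That group was shallower, so the limit of 3 UMIs asked a higher CPM of it, and the part of this was not tested. Leading genes of that group included Mxd4, an antagonist of Myc (83.5 against 35.1 CPM), the matrix protease gene Mmp11 (65.5 against 29.8 CPM) and the endothelin receptor gene Ednrb (61.6 against 29.3 CPM). Per cell, the sum of Col1a1, Col1a2, Col3a1 and Postn had a median of 988 CPM there and 554 CPM in the first group. Across all genes of this comparison, 193 of 3358 (5.75%) were higher and 40 (1.19%) lower in the first group at 50 CPM, and 699 of 10040 (6.96%) and 485 (4.83%) at 5 CPM. Both groups were made from these genes, so the values only describe them.

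**Figure D3:**
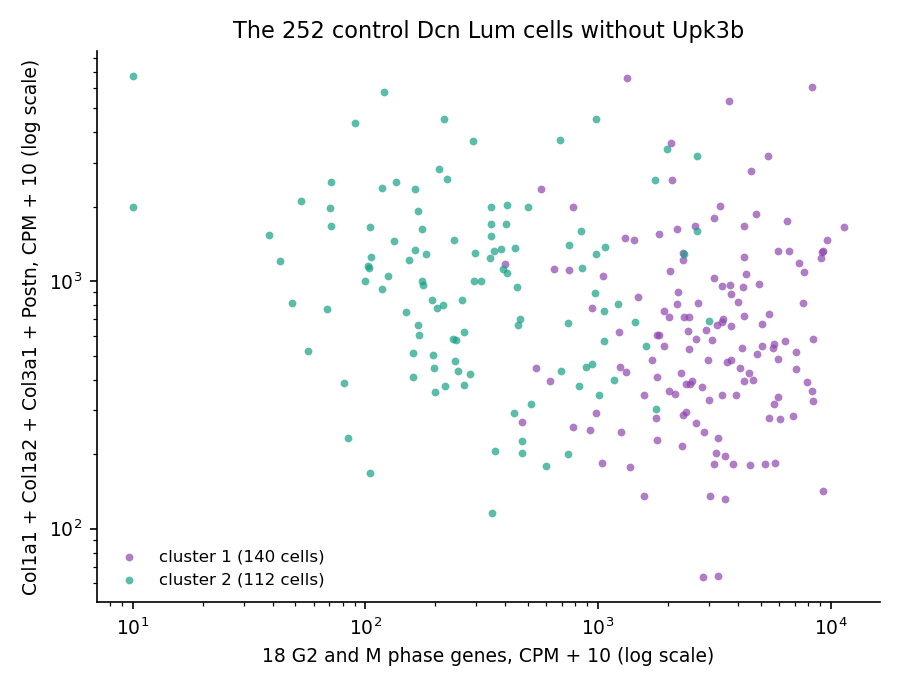
Each point is 1 member, with the summed level of the 18 G2 and M phase genes on the horizontal axis and of Col1a1, Col1a2, Col3a1 and Postn on the vertical axis (CPM + 10, log axes), coloured by the group it fell into when members were clustered alone. The group of 112 cells (cluster 2) lies to the left, with a median matrix sum of 988 CPM against 554 CPM.

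With a limit of 1000 CPM on the summed G2 and M genes, chosen after seeing the data, 109 of 252 members (43.3%, exact interval 37.1 to 49.6%) lay under it. The share was 26.1% (23.2 to 29.3%) among the 834 control Dcn Lum cells with Upk3b, 39.7% among the gated cells without Dcn or Lum and 36.7% among the 4389 knockout Dcn Lum cells. Among the 2091 knockout cells that met the whole rule it was 44.8% (42.7 to 47.0%). With G2 and M counts thinned to 15000 UMIs, the shares in the members and in the Upk3b cells were 43.3% and 25.9%. The groups were still those chosen at full depth, so this does not take depth out of the Upk3b gate.

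The cells most like the members were the control Dcn Lum cells with Upk3b, which differed from them by 1 gate. This comparison and the genes named in it were chosen after their values were seen. Of 3306 genes 9 (0.272%) were at least 1.5-fold higher in the members and 23 (0.696%) lower, and over the 9899 genes at 5 CPM or more 95 (0.96%) were higher and 96 (0.97%) lower, with a median log2 ratio of -0.02. At 50 CPM the counts were 3 and 12 when cells with 1 Upk3b UMI were also counted as members, and 14 were higher without the top 6% of doublet scores. None of the 18 measured fibrillar collagen genes and none of the 4 measured posterior Hox genes was called. Hoxb6 was at 123 CPM in both and Tdo2 at 124 against 142 CPM. The Upk3b cells were deeper, with a median of 51489 UMIs against 38812 in the members.

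The lower genes included several of the mesothelium. The adhesion molecule gene Alcam was at 36.6 CPM in the members (33.2 to 40.4) and 80.8 CPM in the Upk3b cells (78.4 to 83.3). The cadherin gene Cdh3 was at 28.3 against 55.5 CPM, the basonuclin gene Bnc1 at 37.6 against 71.5 CPM and Podxl, which encodes the apical sialomucin podocalyxin, at 50 against 91.6 CPM. Of 13 measured septum transversum and proepicardium genes 4 were lower and none higher, with a median of -0.35. The 4 were Upk3b itself, the uroplakin gene Upk1b, Alcam and Wt1, the mesothelial transcription factor gene.

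The higher genes were led by Tmem158 (53.1 against 22.8 CPM, fold interval 2.11 to 2.57), Tgfbi (129 against 63.9 CPM, 1.90 to 2.15), the Iroquois homeobox gene Irx3 (58.7 against 30.1 CPM) and Rgs5, a G protein regulator gene of mural cells (102 against 52.8 CPM). After thinning to 15000 UMIs, the log2 ratio was 0.92 for Tmem158, 0.71 for Tgfbi and -0.87 for Alcam. Among genes under 50 CPM, Wnt4 was at 25.2 against 9.50 CPM and Pitx1 at 12.2 against 3.27 CPM. Joint cluster 10, led by Hoxc10, Sox2 and Cdx2, held 5 members and 1 of the Upk3b cells. Its part in the levels of Wnt4 and Pitx1 is not reported here.

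The higher genes named above were of 2 kinds when the gated cells without Dcn or Lum were added. Tmem158, Irx3 and Rgs5 were at 55.7, 73.6 and 203 CPM there, no lower than in the members, and free RNA of the library held 44.7, 55.0 and 126 CPM of them. Tgfbi, Wnt4 and Pitx1 were at 34.1, 5.44 and 1.86 CPM in the gated cells and at 26.8, 6.92 and 2.06 CPM in free RNA, under the members in each case. Alcam, at 73.1 CPM in the gated cells, was lower in the members than in either neighbouring group, whereas Bnc1 and Cdh3 were at 13.6 and 15.1 CPM there, so that the members lay between the gated cells and the Upk3b cells.

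Split by the number of Upk3b UMIs, the mesothelial genes went up in steps from the members. Alcam was at 36.6 CPM in the 252 members, 52.5 CPM in the 142 cells with 1 UMI, 73.5 CPM in the 299 cells with 2 to 4 and 92.9 CPM in the 393 cells with at least 5. Wt1 went from 10.8 over 14.4 and 17.9 to 26.9 CPM, and Bnc1 from 37.6 over 51.8 and 63.2 to 81.8 CPM. Tmem158 was at 53.1 CPM in the members and at 28.0, 27.6 and 18.6 CPM in the others, so its step lay between the members and the cells with 1 UMI. Tgfbi had the same form, with 129 CPM and then 74.3, 74.0 and 55.2 CPM. Hoxb6 stayed at 123, 124, 126 and 120.1 CPM. Median depth went up along these groups too, from 38812 over 42686 and 44268 to 62060 UMIs, and its part in the steps was not tested beyond the thinned ratios above.

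**Figure D4:**
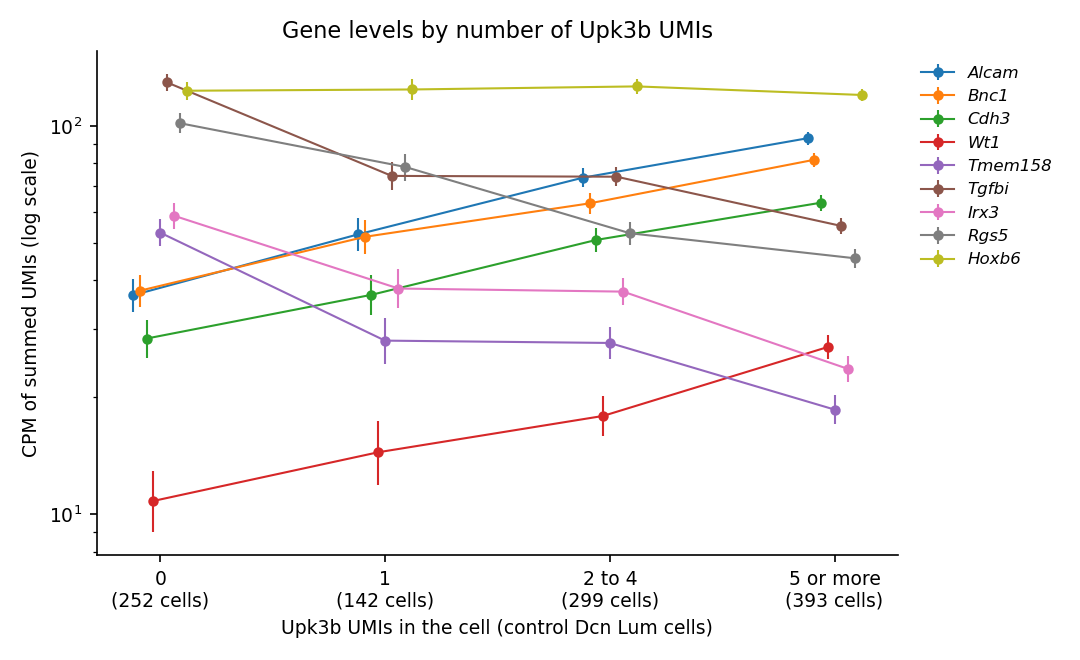
Level (CPM of summed UMIs, log axis, exact Poisson 95% intervals as bars) of 9 genes in the members (0 Upk3b UMIs) and in control Dcn Lum cells with 1, 2 to 4 and at least 5 Upk3b UMIs. Alcam goes from 36.6 to 92.9 CPM, Tmem158 from 53.1 to 18.6 CPM and Hoxb6 stays between 120.1 and 126 CPM.

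In the knockout library the same Dcn plus Lum limit found 4389 of 9449 cells (46.4%, 45.4 to 47.5%), against 1149 of 6354 (18.1%) in the control. The whole rule found 2091 knockout cells (22.1%), against 252 (3.97%) in the control. After thinning to 15000 UMIs the whole rule found 1812 cells (19.2%) in the knockout. In the knockout Cdh5 cells 21 of 402 (5.22%, 3.26 to 7.87%) reached 3 Dcn plus Lum UMIs, against 2.19% in the control. In joint cluster 13 the shares were 8.06% (4.76 to 12.6%) in the knockout and 4.92% in the control. Of the knockout cells that reached the Upk3b gate 50.1% held Upk3b, and at the thinned depth the shares were 31.5% in the knockout and 55.3% in the control.

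Zbtb16, the targeted gene, was at 18.5 CPM (16.1 to 21.2) in the members and 0.727 CPM (0.604 to 0.866) in the knockout Dcn Lum cells. It was not particular to the members within the control, where the other cells had 22.4 CPM. Igf2bp3, an RNA-binding protein gene named in the title of the series, was at 176 CPM in the members and 214 CPM in the knockout Dcn Lum cells. Dcn and Lum themselves were at 82.3 and 170.0 CPM in the knockout cells, and Tdo2 was at 126 CPM against 124 CPM in the members.

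The knockout Dcn Lum cells had more of some matrix genes and less of others. Postn was at 228 CPM (226 to 231) against 66.8 CPM (62.1 to 71.7) in the members, and Col1a1 at 259 against 146 CPM, a log2 ratio of 0.83 that was 0.55 and no longer past 1.5-fold after the length and GC correction described below. Col3a1 went the other way, at 271 against 465 CPM, and Col1a2 was at 208 against 214 CPM. The knockout cells of this comparison were held to the Dcn plus Lum limit only, so that 2103 of them held Upk3b. Of 3673 genes measured, 575 (15.7%) exceeded the members by 1.5-fold or more in these cells and 136 (3.7%) lower. Over all 10083 genes at 5 CPM or more these were 1448 (14.4%) and 518 (5.14%), with a median log2 ratio of 0.06.

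The higher calls followed transcript length. Across the 10080 genes with a transcript length the ratio had a Spearman correlation of 0.546 with length and -0.327 with GC content, a description across genes of 2 libraries. Genes of at most 1771 bases had a median log2 ratio of -0.21 and genes of at least 5258 bases one of 0.44. With a correction for both, chosen after seeing the data, 218 genes were higher and 130 lower. The reason for the trend was not tested, and corrected values are given for the matrix lists below.

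All 15 basement membrane genes were measured, 12 were higher in the knockout cells and none was lower, with a median log2 ratio of 0.89. After the correction 7 were higher and 2 lower, with a median of 0.50. The shift was not particular to Dcn Lum cells. Between all other cells of the 2 libraries 8 of 14 measured were higher in the knockout and none lower, with an uncorrected median of 0.95. Lama4 was at 65.3 against 15.6 CPM (a log2 ratio of 2.0, corrected 1.6), the laminin chain genes Lamb1 and Lamc1 at 125 against 53.5 and 164 against 64.1 CPM (corrected log2 ratios 0.87 and 0.93). The collagen IV gene Col4a1 was at 110.1 against 62.0 CPM, and its log2 ratio of 0.82 was 0.49 after the correction, under 1.5-fold. The fibrillar collagen list had 5 of 18 genes higher and 1 lower, or 4 and 1 after the correction, which moved its median from 0.35 to -0.02. Among elastic fibre and matricellular genes 6 of 17 were higher and 1 lower, or 4 and 2 after the correction. Between the other cells, without the correction, 6 of 18 fibrillar collagen genes were higher and 2 lower. For the elastic fibre and matricellular list these were 1 and 2 of 17. The fibronectin gene Fn1 was at 1149 against 513 CPM (log2 ratio 1.16, corrected 0.73) and the tenascin gene Tnc at 12.1 against 37.6 CPM. The versican gene Vcan was at 268 against 127 CPM, and its log2 ratio of 1.07 was 0.44 after the correction, under 1.5-fold.

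Among named genes at 50 CPM or more, the largest ratio before the correction was that of Man2a1, a Golgi mannosidase gene, at 92.0 against 18 CPM. The endocytic receptor gene Lrp2 was at 117 against 23.3 CPM and the ligand gene Wnt5a at 88.2 against 19.7 CPM. With the correction the log2 ratios of Man2a1, Lrp2 and Wnt5a went from 2.29, 2.28 and 2.11 to 1.81, 1.66 and 1.62. Hist1h1e, which encodes a linker histone, was at 153 against 36.0 CPM, and its log2 ratio of 2.06 was 2.18 after the correction. Ahnak was at 1372 against 336 CPM, a log2 ratio of 2.02 that was 1.37 after the correction. Igf2, the imprinted growth factor gene, was at 2675 against 784 CPM (log2 ratio 1.77, corrected 1.56). Its clearance receptor gene Igf2r was at 993 against 285 CPM (log2 ratio 1.795, corrected 1.31). An Igf2 UMI was seen in each cell of both groups, with a median of 757 CPM per cell in the members and 2685 CPM in the knockout cells, so the gap lay in the typical cell. Free RNA of the control library held 1578 CPM of Igf2, which is above the members.

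Mest, an imprinted gene of mesoderm, was the lowest in ratio, at 87.5 against 2069 CPM, a log2 ratio of -4.55. A Mest UMI was seen in 233 of the 252 members (92.5%, 88.5 to 95.4%) and in 785 of the 4389 knockout cells (17.9%, 16.8 to 19.1%). The knockout cells were not uniformly low: the 5% with the most held 95.8% of their Mest UMIs, with a highest value of 8210 CPM, whereas in the members the top 5% held 18.4%. Hoxb1 had a like form, with a UMI in 62.7% of the members and 17.2% of the knockout cells and with 33.2% and 70.0% of its UMIs in the top 5%. Its level was 104 against 14.5 CPM (13.9 to 15.1), a log2 ratio of -2.75. Free RNA moved the same way, with 1585 CPM of Mest and 186 CPM of Hoxb1 in the control library and 102 and 32.7 CPM in the knockout library. For Postn it held 18.2 and 173 CPM. The part of free RNA in these differences was not tested.

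Heart field and cardiomyocyte transcripts were for the most part lower in the knockout cells than in the members. Of 10 measured second heart field genes 6 were lower and 1 higher, with a median of -1.31, or -1.29 after the correction. Mef2c was at 21.5 against 72.2 CPM, Wnt2 at 23.8 against 72.5 CPM, Isl1 at 5.36 against 12.2 CPM and Sfrp5 at 0.809 against 8.31 CPM. Of 10 measured cardiomyocyte genes 7 were lower and 1 higher, with a median of -1.40, and Myl7 was at 5.19 against 91.9 CPM. Both lists were lower in the knockout between all other cells too, with medians of -1.62 for second heart field and -3.41 for cardiomyocyte genes. These cardiac levels moved with free RNA, in which the cardiomyocyte list summed to 2566 CPM for the control library and 267 CPM for the knockout library, beside 604 and 276 CPM in the cells.

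Other lower genes were Crabp2, which encodes a retinoic acid binding protein (18.1 against 101 CPM), the sterol pathway genes Fdps (118 against 416 CPM) and Mvd (21.9 against 65.3 CPM), and Gata5 (32.3 against 80.4 CPM). Tmem158 and Rgs5, which had been higher in the members than in the Upk3b cells, were at 15.2 and 42.7 CPM in the knockout cells, and at 18.8 and 55.5 CPM in the 2091 knockout cells that met the whole rule. Of the anterior Hox genes 3 of 6 measured were lower: Hoxb1, Hoxb4 (47.0 CPM, log2 ratio -0.64) and Hoxb5 (41.6 CPM, -0.83). After the correction 2 were lower, and Hoxb4 was under 1.5-fold at -0.56. Hoxb2, at 167 CPM and -0.45 before the correction, was not called. The posterior group had 1 of 5 higher and none lower.

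**Figure D5:**
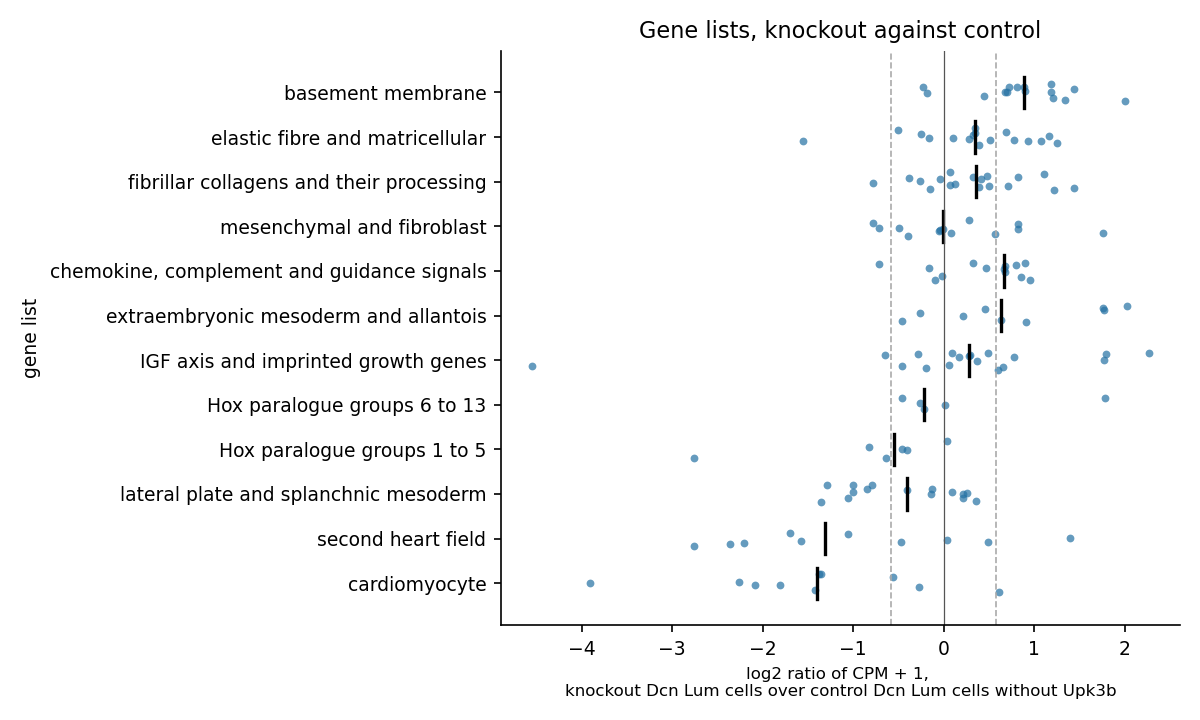
For gene lists on the vertical axis, the log2 ratios of CPM + 1 of their measured genes between the knockout Dcn Lum cells and the members, without the length and GC correction (1 point per gene), with the median as a black bar and 1.5-fold as dashed lines. Basement membrane genes lie mostly above 0 (median 0.89) and second heart field and cardiomyocyte genes mostly below it (medians -1.31 and -1.40).

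Applying every gate to the knockout cells changed these counts little. With the whole rule 515 of 3633 genes (14.2%) were higher and 117 (3.22%) lower in the knockout cells than in the members, and Postn was at 204 CPM, Mest at 76.0 CPM, Hoxb1 at 12.8 CPM and Lama4 at 68.4 CPM. Among all other cells of both libraries 470 of 3696 genes (12.7%) were higher and 142 (3.84%) lower in the knockout. Of 3490 genes in both comparisons, 0 were called in opposite directions in the Dcn Lum cells and in the other cells.

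The contrast between cells that met the rule and gated cells without Dcn or Lum was set side by side in each library, over 3146 genes. It gave 154 higher genes (4.9%) within the control library and 134 (4.26%) within the knockout library. Lower genes numbered 79 (2.51%) and 72 (2.29%). Of the higher genes 99 were called in both, which is 64.3% of the control's and 73.9% of the knockout's. Of the lower genes 29 were called in both, 36.7% and 40.3%, and 0 genes were called in opposite directions. The log2 ratio of Postn was 4.42 for the control cells and 1.90 for the knockout cells, that of Hoxb6 3.17 and 0.79 and that of Tdo2 3.50 and 1.77. In the knockout's gated cells Postn was at 53.9 CPM, Hoxb6 at 47.9 CPM and Tdo2 at 34.0 CPM, above the 2.16, 12.8 and 10 CPM of the control's. The differences between these ratios were not tested.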

How the data were processed

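Droplet single-cell RNA sequencing was done on 1 control and 1 Zbtb16 knockout library. The authors deposited unfiltered UMI count matrices that are not normalized, written by Cell Ranger 4 per the file headers. Cell Ranger and R 4.1.1, with GRCm39 and mm39, are named per the submitters' processing notes. The conversion of DNBelab reads for Cell Ranger is not described in the labels.

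Barcodes with at least 15000 UMIs, 500 genes and at most 10% mitochondrial UMIs were kept. This removed 24 control and 50 knockout barcodes above the UMI minimum. The kept cells hold 94.8% of 308465930 control UMIs and 96.0% of 357324373 knockout UMIs. Scrublet, set to an expected rate of 6%, called doublets at 0.0157% and 0.0212% and so did not work, and no cell was removed as a doublet.

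UMIs were summed per group and scaled to CPM, with exact 95% Poisson intervals. Shares have Clopper-Pearson intervals. Ratios are log2 of CPM plus 1. A gene was called at 1.5-fold, among genes at 50 CPM or more in either group (5 CPM for lists and their background). Cells are not replicates, so nothing was tested, and precision is limited by 1 library per group. Clusters (scanpy 1.11.5, leidenalg 0.10.2) used 2000 variable genes, 30 principal components (20 for members alone) and 15 neighbours. Other tools were Python 3.11.15, numpy 2.4.6, scipy 1.17.1, pandas 2.3.3, statsmodels 0.14.6, R 4.3.3 and edgeR 4.0.16 (TMM factors only). Scripts were tested on simulated counts.

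Genes were named by this rule, leaving out predicted, ribosomal protein and mitochondrially encoded genes: the 15 largest ratios in each direction of the members against the other control cells and of the knockout Dcn Lum cells against the members, the 12 largest against the gated cells, and up to 4 genes by level and 2 by ratio of each of 32 lists. The marker genes, the genes of the rule, Zbtb16, Igf2bp3 and the 5 genes most like Dcn and Lum were always named. Genes outside the rule were chosen after their values were seen. The members and lists were chosen with earlier results of these data known. Alternatives changed the gates, depth, scaling, cell weights, prior, filter and doublet scores. Lengths and GC content came from the GENCODE mouse transcripts given with the data, matched by gene for 99.97% of the genes tested. No coordinates are printed, because no annotation of the files' build was used here. Some results of the named-gene rule are not reported here.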

Additional observations from a re-analysis of the deposited data

How the results depend on the processing

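No paired analysis was possible because the control and the knockout are 1 library apiece. Of 132 alternative values of the main counts, 106 kept within their limit and 26 did not. The share of members, 3.97%, was 4.85% with a limit of 2 UMIs, 3.01% with 5 UMIs, 6.20% with 1 Upk3b UMI allowed and 3.34% at 5% mitochondrial UMIs. Against the other control cells, higher genes were 143 after thinning, 113 with equal weight per cell, 183 at 10 CPM and 39 at 100 CPM, and lower genes 331 and 40 at these filters. Against the gated cells they were 390 and 88 higher and 494 and 62 lower at 10 and 100 CPM. For the knockout they were 1274 and 266 higher and 371 and 71 lower, and 218 higher with the length and GC correction. Against the Upk3b cells they were 47 and 2 higher and 67 and 5 lower, 3 higher and 12 lower with 1 Upk3b UMI allowed, and 14 higher without the top 6% of doublet scores. The number of genes tested differed at other filters. The share called could differ too: against the other control cells 2.57% of genes were lower at 50 CPM and 5.07% at 5 CPM. The cause of these changes was not tested.

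Of the alternative values for named genes and lists, 9251 kept within their limit and 2621 moved. Sign changes were counted only for values at least 1.5-fold in the main setting, and 10 such values changed sign. With 1 Upk3b UMI allowed these were Ttr (-0.84) and the endoderm median (-0.085) of knockout against members, and Spink1 (1.45) and Ttr (1.13) of members against Upk3b cells. After thinning they were Tek of members against other cells (0.17), Ctla2a against gated cells (-0.86) and Dppa5a of knockout against members (-0.45). With joint clusters 3 and 9 only, chosen after seeing the data, they were Sox2 against other cells (-0.50), and Rbp4 (0.17) and Spink1 (0.085) against Upk3b cells. In that setting 89 genes were higher and 94 lower than in the other control cells. With 1 library per group, depth limits the counts only, and replicate error is unknown.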
